A study of Homo sapiens with 6 samples.

Results

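The mitotic kinesins are motor proteins that move along or act on the microtubules of the dividing cell. Their mRNAs were followed here in colorectal cancer cells with and without knockdown of BZW2. The 10 genes were taken from a list of names: KIF11, KIF15, KIFC1, KIF2C, KIF18B, KIF4A, KIF14, KIF20A, KIF20B and KIF23. This list and the other gene lists below were chosen with earlier results of these data known. Their counts beside the shares of all genes are therefore descriptions and no independent test. Of these, 9 had exactly 1 row in the expression table and values in all 3 lines, out of 10875 genes listed in all 3 lines and 13021 identifiers with 1 row. KIFC1 was not analysed here for its level.

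RNA sequencing had been done on HCT116 (HCT116WT in the sample titles), HT29 and SW480, which are established human colorectal cancer lines. In each line 1 library came from cells with a stable lentiviral non-targeting short hairpin RNA (shRNA), titled SCR, and 1 from cells with a stable lentiviral shRNA against BZW2, titled SH2, so that each group held 3 libraries. All cells, controls included, had been infected with lentivirus and selected with puromycin at 1 µg/ml. The study asked which genes and pathways differ when BZW2 is depleted. The labels name 1 BZW2 hairpin and do not say whether the selected cells were clones or pools.

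The libraries held between 2187373 reads (HCT116 knockdown) and 9317444 reads (HT29 control) over listed genes. After scaling, BZW2 itself was at 17.6% of control in the HCT116 knockdown library (29 and 530 reads), 8.69% in that of HT29 (133 and 1590) and 13.5% in that of SW480 (77 and 456). Of 8 colorectal epithelial markers 6 were listed in all lines, VIL1 and KRT20 not being analysed here, and of 15 fibroblast, leukocyte and endothelial markers only COL1A1 was listed in any line. For HCT116, the summed epithelial markers stood at 3783 CPM (reads scaled to a common library size) without and 14587 with the BZW2 hairpin, for HT29 at 10414 and 9030, and for SW480 at 6725 and 6557. In HCT116, KRT8 (1319 and 5287 CPM), KRT18, KRT19 and CDX2 were higher with the BZW2 hairpin. EPCAM (296 and 205) and CDH1 (172 and 79.7) were lower there, and both were lower in every line. The part of these marker shifts in the kinesin values was not tested.

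Kinesins turn ATP hydrolysis into steps along a microtubule or into the removal of tubulin from its ends. In mitosis they push the spindle poles apart, align chromosomes, set the length of microtubules and build the midzone that later guides cytokinesis. Most of their genes are transcribed in G2 and M phase, so that a bulk sample of dividing cells contains more of these mRNAs when more of its cells are in those phases. In bulk RNA, a larger share of such cells and more RNA per cell cannot be told apart.

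In SW480, all 9 listed kinesins were higher in the BZW2 knockdown library, from 1.57-fold for KIF15 to 4.44-fold for KIF20A. In HT29, 8 of 9 were higher, and KIF20B was at 32.7% of control. In HCT116, 6 were higher and 3 lower, over the far wider span of 35.3% of control for KIF20B to 28.8-fold for KIF18B. KIF11, KIF2C, KIF18B, KIF4A, KIF20A and KIF23 were higher in every line, 6 of 9 genes, where 22.3% of all 10875 genes were. At least 2-fold higher in HCT116 were 4 kinesins (26.8% of all genes) and 1, KIF20B, was at least 2-fold lower (28.8%), so that the count in this line is not far from its background. In HT29, 3 were at least 2-fold higher (3.74%) and 1, again KIF20B, lower (6.17%), and in SW480 8 were higher (4.98%), all but KIF15, and 0 lower (7.36%). In HT29 and SW480 alone, 8 of 9 were higher in both lines, against 32.5% of all genes. The summed CPM of the 9 genes went from 317 to 799 in HCT116, from 469 to 780 in HT29 and from 385 to 1061 in SW480.

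**Figure D1:**
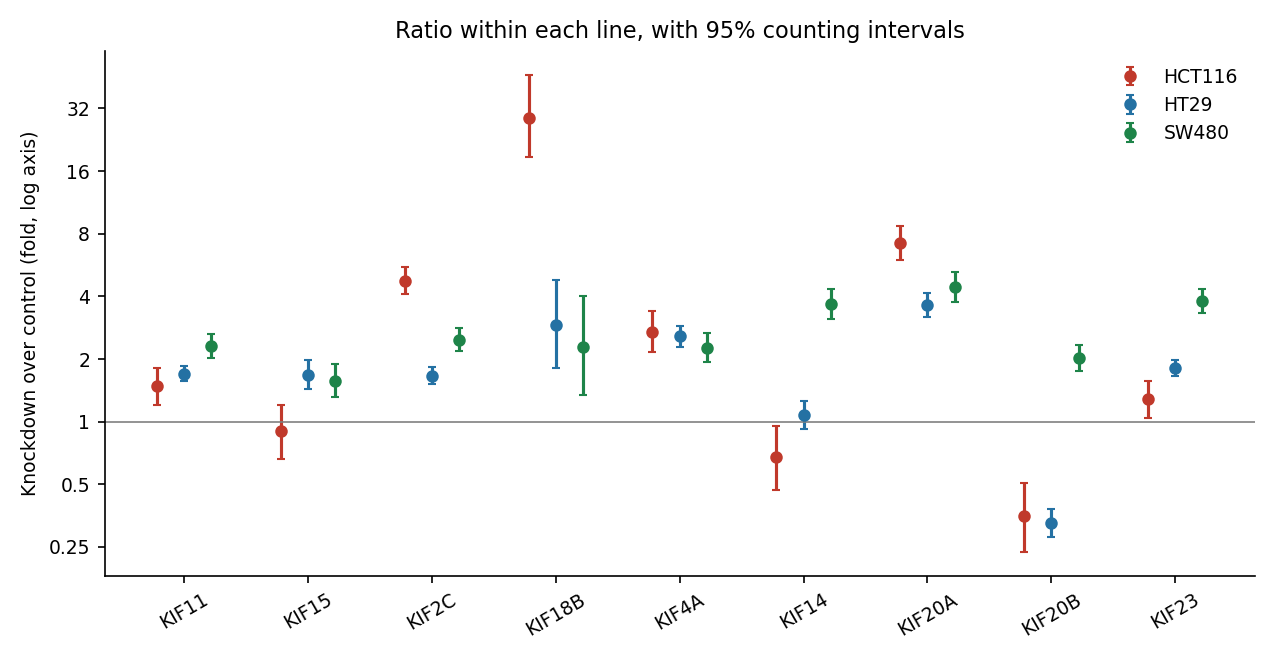
Fold of the BZW2 knockdown over the control library (log axis) for each kinesin in HCT116, HT29 and SW480, with bars for 95% counting intervals and a line at 1. Points of KIF20A and KIF4A lie above 1 in every line, whereas KIF20B lies near 0.353 in HCT116 and 0.327 in HT29 and at 2.01 in SW480.

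Because these mRNAs were mostly higher together, their promoters are shown for 4 genes that differ in how they behaved: KIF20A, the one with the smallest p across lines, its relative KIF20B, KIF23, and KIF15. Genes of G2 and M phase are known to be held down outside those phases through the cell cycle genes homology region (CHR), a site of the MuvB and DREAM complexes, often with CCAAT boxes, the sites of NF-Y, nearby. Each window of 300 bases runs from 250 before the RefSeq start of the gene (GRCh38.p14) and is written 5′ to 3′ on the strand of the gene. Capitals mark every match on either strand, so that some read as the reverse complement. The CHR was searched as TTTGAA. The CCAAT box was searched by its name's letters. E2F sites were searched as TTTCCCGC, TTTCGCGC, TTTGCCGC or TTTGGCGC.
KIF20A promoter (chr5:138178862-138179161, plus strand): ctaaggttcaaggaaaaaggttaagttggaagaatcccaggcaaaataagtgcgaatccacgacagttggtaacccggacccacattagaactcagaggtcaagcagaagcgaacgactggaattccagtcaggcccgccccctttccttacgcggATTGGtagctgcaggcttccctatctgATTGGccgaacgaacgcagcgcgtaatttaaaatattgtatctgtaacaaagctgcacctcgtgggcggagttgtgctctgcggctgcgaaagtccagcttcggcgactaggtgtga
KIF20B promoter (chr10:89701340-89701639, plus strand): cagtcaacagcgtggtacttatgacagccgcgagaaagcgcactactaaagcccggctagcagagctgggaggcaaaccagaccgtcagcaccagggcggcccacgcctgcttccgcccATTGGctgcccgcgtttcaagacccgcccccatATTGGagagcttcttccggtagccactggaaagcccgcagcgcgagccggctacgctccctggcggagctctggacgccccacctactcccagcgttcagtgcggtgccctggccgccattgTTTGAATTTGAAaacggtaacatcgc
KIF23 promoter (chr15:69414099-69414398, plus strand): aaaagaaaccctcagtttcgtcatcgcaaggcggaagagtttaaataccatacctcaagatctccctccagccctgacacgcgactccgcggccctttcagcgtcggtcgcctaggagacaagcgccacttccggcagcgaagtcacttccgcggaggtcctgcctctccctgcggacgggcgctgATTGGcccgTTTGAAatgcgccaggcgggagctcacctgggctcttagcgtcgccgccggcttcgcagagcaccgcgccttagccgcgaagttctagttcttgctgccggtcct
KIF15 promoter (chr3:44761544-44761843, plus strand): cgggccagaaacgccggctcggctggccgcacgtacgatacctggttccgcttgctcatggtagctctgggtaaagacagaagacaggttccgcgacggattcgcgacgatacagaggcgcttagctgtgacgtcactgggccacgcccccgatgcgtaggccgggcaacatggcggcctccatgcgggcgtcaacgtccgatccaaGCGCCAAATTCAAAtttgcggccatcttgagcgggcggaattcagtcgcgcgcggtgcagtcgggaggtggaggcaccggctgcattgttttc

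All 10 kinesin genes matched the RefSeq promoter table. A CHR match was found in 8 of them, against 15.2% of all 35116 promoters of that length, and a CCAAT match in 8, against 34.6%. Both were found in 7 (KIF11, KIF14, KIF18B, KIF20B, KIF23, KIF4A and KIFC1), against 5.90% of all promoters, and an E2F match in 1, KIF15, against 3.31%. KIF2C had no match to any of these letters in its window. KIF20A held CCAAT matches, with first bases at positions −94 and −67 when the first base after the 250 upstream bases is 0, and no TTTGAA. KIF20B held 2 CHR matches side by side at 24 and 30, both after the start, and CCAAT matches at −131 and −98. In KIF23 the CHR match at −55 followed the CCAAT match at −64, and in KIF15 the CHR match at −35 directly followed the E2F match at −43. No match overlapped another. A match describes the letters and is no evidence of binding. KIF20A and KIF2C, both without a CHR match, were higher in every line. Of the genes with a match, KIF11, KIF18B, KIF23 and KIF4A were higher in every line, and KIF14 and KIF15 were not. KIF20B, with 2 matches, was lower in HCT116 and HT29. Only the letters TTTGAA were searched, and a link between the CHR and the ratios was not tested.

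KIF11 and KIF15 keep the spindle bipolar. KIF11 (ENSG00000138160, chromosome 10, 92593286 to 92655395, GRCh38), which slides antiparallel microtubules apart, was measured at an RPKM (CPM per kilobase of the longest annotated transcript) of 9.79 without and 14.5 with the BZW2 hairpin for HCT116, at 19.2 and 32.7 in HT29, and at 12.4 and 28.7 in SW480. Each pair was thus higher after knockdown, by 1.48-fold (95% counting interval 1.20 to 1.82), 1.70-fold (1.56 to 1.85) and 2.32-fold (2.03 to 2.65). The SW480 ratio lay beyond the intervals of the other lines. KIF15 (ENSG00000163808, chromosome 3, 44761717 to 44873376), a motor that can stand in for KIF11, was at 7.04 and 6.33 in HCT116, at 5.50 and 9.23 in HT29, and at 7.46 and 11.7 in SW480. Its HCT116 ratio of 0.899 (0.664 to 1.20) could not be told from no difference at this depth of 60 against 215 reads, and its ratios of 1.68 in HT29 and 1.57 in SW480 had overlapping intervals. The gene TMEM42, which lies within KIF15 on the same strand over 3802 bases, had log2 ratios of −0.06, −0.09 and −0.43 in HCT116, HT29 and SW480.

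KIF2C and KIF18B shorten microtubules or limit their length at the ends. KIF2C (ENSG00000142945, chromosome 1, 44739818 to 44767767), a depolymerase that frees wrongly attached kinetochores, stood at an RPKM of 15.9 in the control and 75.7 in the knockdown library of HCT116, at 27.1 and 45.0 in HT29, and at 21.9 and 54.3 in SW480. All 3 knockdown libraries were above all 3 controls. The ratio of 4.75 (4.09 to 5.52) in HCT116 exceeded that of 2.47 (2.18 to 2.81) in SW480, which exceeded that of 1.66 (1.51 to 1.82) in HT29. AL592166.1, on the opposite strand, shares 8731 bases with KIF2C and had log2 ratios of 3.12, −0.38 and 0.59, and since the strandedness is not known, reads of these genes cannot be told apart. KIF18B (ENSG00000186185, chromosome 17, 44924709 to 44947711, minus strand), which restrains astral microtubules, was the least abundant listed kinesin in every control library, at 0.865, 0.636 and 0.952 in HCT116, HT29 and SW480. It reached 25.0 in the HCT116 knockdown library, from 206 against 23 reads, a ratio of 28.8 (18.7 to 46.5). In HT29 it was at 1.85 (70 against 25 reads, 2.91-fold, 1.82 to 4.79) and in SW480 at 2.17 (57 against 20 reads, 2.28-fold, 1.35 to 4.01). The HCT116 ratio therefore stood apart from both other lines by more than counting error.

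KIF4A (ENSG00000090889, chromosome X, 70290090 to 70420832), which rides on chromosome arms and then helps to size the central spindle, was the member with the most even ratios. Its level was 6.20 in the control and 16.8 in the knockdown library of HCT116, 10.2 and 26.3 in HT29, and 9.28 and 21.0 in SW480. The ratios of 2.71 (2.15 to 3.40), 2.57 (2.29 to 2.88) and 2.27 (1.93 to 2.68) could not be told apart by counting error. All knockdown libraries lay above all controls. The gene PDZD11, on the opposite strand, shares 425 bases with it and had log2 ratios of 0.17, 0.48 and 0.72.

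The cytokinesis motors divided into KIF20A and KIF23, which were higher in every line, and KIF14 and KIF20B, which were not. KIF20A (ENSG00000112984, chromosome 5, 138178719 to 138187715), which carries the chromosomal passenger complex to the midzone, was at 8.18 in the control and 58.7 in the knockdown library of HCT116, at 9.16 and 33.3 in HT29, and at 11.0 and 49.0 in SW480. Every knockdown library was above every control. HCT116 had the highest ratio, 7.18 (5.96 to 8.68), beyond the overlapping intervals around 3.63 (3.17 to 4.17) for HT29 and 4.44 (3.77 to 5.24) for SW480. CDC23 and BRD8 lie on the opposite strand and overlap the annotated KIF20A by 68 and 268 bases. Their log2 ratios were 0.64 and 1.06 in HCT116, 0.31 and 0.57 in HT29, and 0.56 and 0.21 in SW480, all under the 2.82, 1.85 and 2.14 of KIF20A.

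KIF23 (ENSG00000137807, chromosome 15, 69414246 to 69448427), the motor of centralspindlin, stood at 14.7 and 18.9 in HCT116, at 22.7 and 40.9 in HT29, and at 14.8 and 56.4 in SW480. The ratios climbed in that order of lines, from 1.28 (1.05 to 1.57) over 1.81 (1.65 to 1.97) to 3.80 (3.34 to 4.35), with no interval overlapping the next. With the correction for GC content and length described below, they were 2.10, 1.92 and 3.58. The order of HCT116 and HT29 thus depended on that correction. KIF14 (ENSG00000118193, chromosome 1, 200551497 to 200620734, minus strand), a partner of citron kinase in cytokinesis, was at 4.14 and 2.81 in HCT116, at 4.94 and 5.33 in HT29, and at 4.86 and 17.8 in SW480. It was thus lower in HCT116, at 67.8% of control (47.0 to 95.8%, 40 against 190 reads), not distinguishable from control in HT29 at 108% (92.6 to 126%), and 3.66-fold higher (3.11 to 4.34) in SW480.

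KIF20B (ENSG00000138182, chromosome 10, 89701610 to 89774939), a late cytokinesis motor related to KIF20A, was at 7.22 in the control and 2.55 in the knockdown library of HCT116, at 11.3 and 3.68 in HT29, and at 8.32 and 16.8 in SW480. The HCT116 and HT29 ratios were alike, at 35.3% (23.7 to 50.9%, 32 against 292 reads) and 32.7% (27.9 to 38.2%, 212 against 674 reads) of control, and SW480 went the other way at 2.01-fold (1.74 to 2.33, 669 against 266 reads). KIF20A and KIF20B, close relatives in sequence family, therefore lay at opposite sides of no difference in HCT116 and HT29 and on the same side in SW480.

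**Figure D2:**
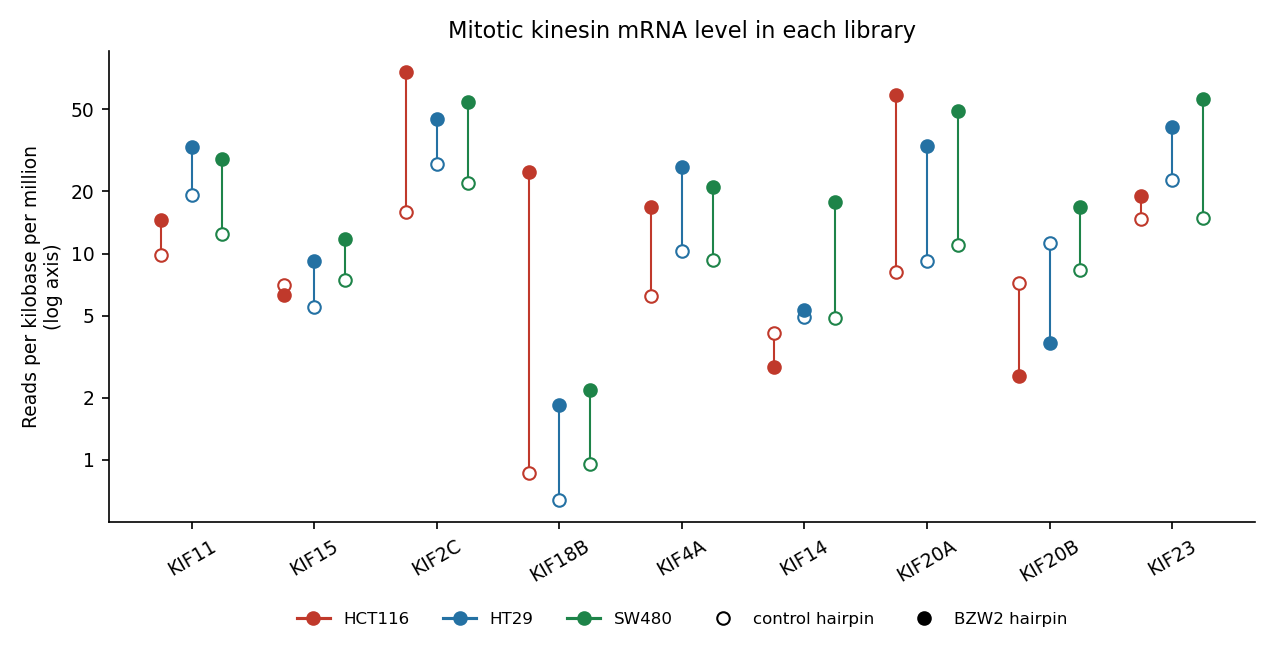
Level of each kinesin mRNA in RPKM (log axis), with open points for control and filled points for BZW2 knockdown libraries, coloured by line and joined within a line. KIF18B is the lowest gene in every control library, and its HCT116 knockdown point at 25.0 stands far above 1.85 in HT29 and 2.17 in SW480.

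Per unit of transcript length, the control libraries of all 3 lines shared most of their order. KIF2C was the highest listed kinesin in each, followed by KIF23 and then KIF11, and KIF14 and KIF18B were the lowest. Counting intervals of KIF2C and KIF23 overlapped in HCT116, and those of KIF23 and KIF11 in SW480, so that these orders are not resolved there, whereas KIF14 and KIF18B were separated from each other and from the gene above them in HCT116 and SW480. In the HT29 control, KIF14 and KIF15 overlapped. The genes in between, KIF20A, KIF4A, KIF20B and KIF15, mostly overlapped with a neighbour. In the knockdown libraries the order moved apart: KIF20A was below KIF2C alone in HCT116 and below KIF2C and KIF23 in HT29 and SW480, KIF18B stood next after KIF20A in HCT116, and KIF20B was last in HCT116. The intervals of KIF18B and KIF23 overlapped in the HCT116 knockdown library, as did those of KIF14 and KIF20B. KIF2C and KIF23 overlapped in the HT29 and SW480 knockdown libraries, KIF20A and KIF11 in that of HT29, and KIF2C and KIF20A in that of SW480. The scaling was done within each line, so a level is compared between lines only roughly.

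The ratios of the kinesins ran with the base composition of their transcripts in HCT116, as did those of all genes. The longest transcripts of the 9 genes ranged in GC content from 34.2% (KIF20B) over 38.3% (KIF14 and KIF11), 41.2% (KIF15), 42.3% (KIF23), 46.4% (KIF4A), 48.4% (KIF20A) and 50.4% (KIF2C) to 58.4% (KIF18B), and in length from 2955 bases (KIF2C) to 7274 (KIF14). Across the 9 genes, which share the same libraries, log2 ratio and GC content had Spearman correlations of 0.93 (HCT116), 0.70 (HT29) and 0.20 (SW480). Over all listed genes it was 0.66, 0.31 and −0.06. The correlations with length were −0.75, −0.57 and −0.42 for the kinesins and −0.26, −0.20 and −0.14 for all genes. These are descriptions across genes of single library pairs. The cause of the trend in GC content was not tested.

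**Figure D3:**
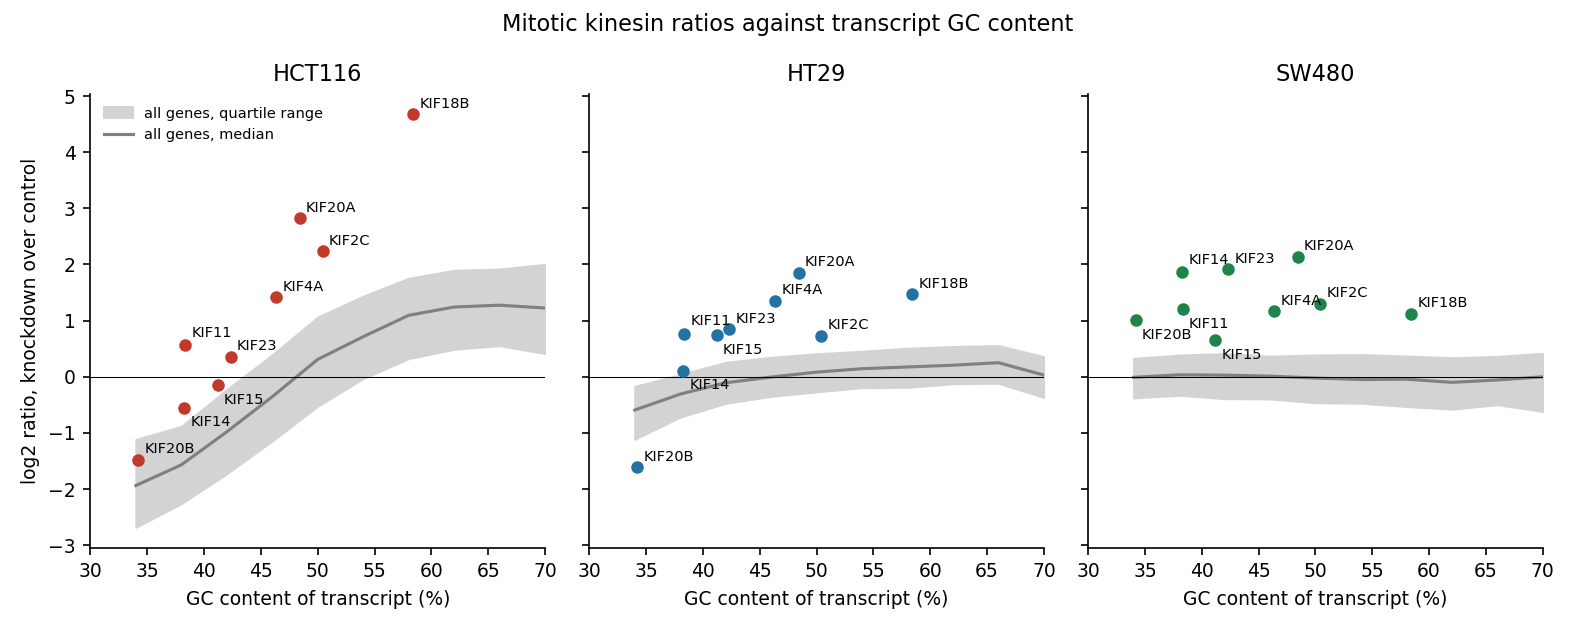
The log2 ratio of knockdown over control plotted against transcript GC content in percent for the 9 kinesins (points), with the median and quartile range of all listed genes in bins of 4% (grey). In HCT116 the all-gene median climbs with GC content and the kinesins climb with it and mostly above it, and in SW480 the all-gene median stays near 0 while all 9 kinesins lie above.

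When the trend of each line over GC content and length was subtracted, the spread of the kinesins narrowed in HCT116 and their direction became more uniform. The SD of their log2 ratios went from 1.90 to 0.92 in HCT116, from 1.00 to 0.75 in HT29 and stayed at 0.49 in SW480. The SD over all genes went from 1.58 to 1.20, from 0.67 to 0.63 and from 0.70 to 0.69 in the same lines. The subtraction did not free the kinesin values of GC content. Their corrected log2 ratios still had Spearman correlations with it of 0.72 (HCT116), 0.62 (HT29) and 0.35 (SW480). In HCT116 all 9 lay above 0 after subtraction, from 0.59 for KIF20B to 3.55 for KIF18B, where KIF14 moved from −0.55 to 1.11, KIF15 from −0.15 to 0.96 and KIF11 from 0.56 to 2.07. In HT29, KIF20B stayed below 0, at −0.82 from −1.61, and the other 8 lay above. Higher in every line were then 8 of 9 genes, all but KIF20B, against 23.7% of all genes. At least 2-fold higher were then 7 kinesins in HCT116 (16.2% of all genes), 4 in HT29 (3.9%) and 8 in SW480 (4.66%). The same subtraction moved BZW2 from −2.47 to −0.92 in HCT116. Whether the measured or the corrected values of that line are nearer to the true ratios was not tested.

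**Figure D4:**
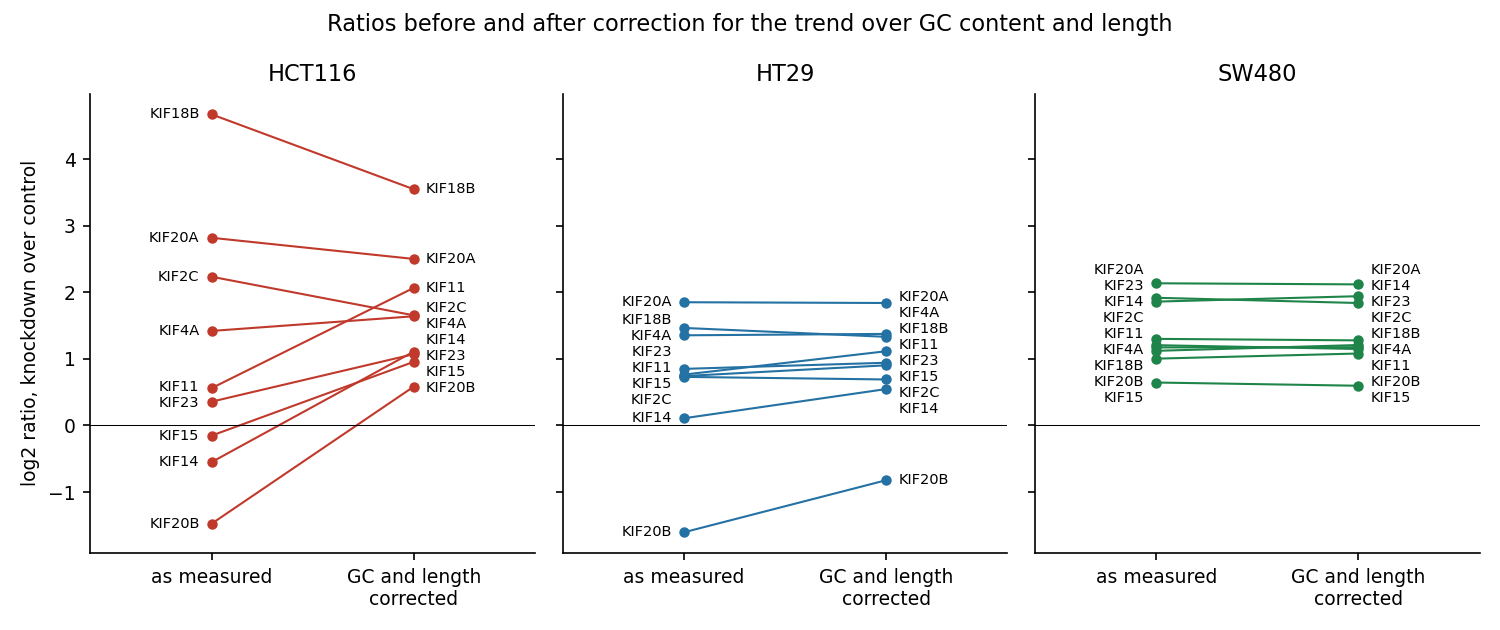
The log2 ratio of each kinesin in HCT116, HT29 and SW480 as measured (left) and after subtraction of the line's trend over transcript GC content and length (right). Lines converge in HCT116, where KIF20B moves from −1.48 to 0.59, and hardly move in SW480.

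Across the 3 lines, a limma fit over all genes with line and treatment as terms put the log2 fold change above 0 for 8 of the 9 kinesins, with a median of 1.08 against 0.02 for all genes, where 51.1% were positive. No kinesin passed an adjusted p of 0.05, and neither did any of the 10875 genes (0% called), so no kinesin is called changed across lines by that test. At an unadjusted p under 0.05, 6 of 9 kinesins were higher, against 6.59% of all genes, and 0 were lower, against 7.04%. The estimates were 2.50 ± 0.71 (limma SE, n = 3 lines) for KIF18B, 2.31 ± 0.385 for KIF20A and 1.46 ± 0.41 for KIF2C. KIF4A was at 1.36 ± 0.37, KIF23 at 1.08 ± 0.41 and KIF11 at 0.88 ± 0.36. These SE draw mostly on spread pooled over genes. KIF14 (0.51 ± 0.50), KIF15 (0.45 ± 0.40) and KIF20B (−0.66 ± 0.54) missed an unadjusted p of 0.05. The limma adjusted p was 0.250 for KIF20A and between 0.268 and 0.614 for the others. An exact paired test on 3 lines cannot go below a two-sided p of 0.25.

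The calls depended on the tool and on which lines were in the fit. On the same counts, the edgeR quasi-likelihood test called 0 genes higher (549, or 5.05%, at an unadjusted p under 0.05, 5 kinesins among them), and DESeq2 called 110 genes higher (1.01%), with KIF20A (adjusted p = 0.000273) and KIF18B (adjusted p = 0.0178) among them. Without HCT116, limma called 187 genes higher (1.72%), including KIF20A (2.03, limma adjusted p = 0.00388), KIF4A (1.30, limma adjusted p = 0.0173) and KIF23 (1.42, limma adjusted p = 0.0225). KIF18B was then at 1.36 (limma adjusted p = 0.0949), so its 3-line estimate rests much on HCT116. Without HT29, limma called 30 genes higher (0.276%) and no kinesin, and without SW480 it called 44 (0.405%), with KIF20A and KIF18B among them. KIF14 was at 1.02 without HCT116, 0.70 without HT29 and −0.19 without SW480. KIF20B was at −0.27, −0.20 and −1.51 in the same fits, and KIF23 at 1.42, 1.18 and 0.64. KIF15 was at 0.73, 0.29 and 0.33. The signs of KIF20B, KIF23 and KIF15 thus held in each of these fits, and that of KIF14 did not. Fits with 2 lines have fewer residual degrees of freedom and lean on spread pooled over genes.

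Outside the 9 genes, other kinesins of mitosis did not share one direction across the 3 lines. Of 4 listed of 6 named (CENPE, KIF18A, KIF22 and KIF2A), 0 passed in limma, 1 (KIF22) lay above 0 and the median was −0.38. In SW480 all 4 were higher, with a median log2 ratio of 1.17 beside 1.21 for the 9 genes. The medians were −1.51 beside 0.56 in HCT116 and −0.42 beside 0.77 in HT29. KIF22, a chromokinesin, was at 1.98 ± 0.46 with log2 ratios of 3.17, 1.02 and 1.64 in HCT116, HT29 and SW480, and DESeq2 (adjusted p = 0.0117) and limma without HCT116 (adjusted p = 0.0173) called it higher. CENPE, the kinetochore motor that brings chromosomes to the metaphase plate, had log2 ratios of −2.26, −2.14 and 1.06, beside −1.48, −1.61 and 1.01 for KIF20B. Its transcript is also long and low in GC, with 8612 bases and 35.3%. KIF18A, which dampens chromosome movement, was at −1.56, −0.50 and 1.28, and KIF2A, a depolymerase of spindle poles, at −1.47, −0.33 and 0.08. The direction of this list turned with the correction for GC content and length, to a median of 0.13 with 2 of 4 genes above 0. KIF18A went from −0.23 to 0.36 with the correction and to 0.42 without HCT116. CENPE went from −1.09 to −0.09 and −0.51, and KIF2A from −0.54 to −0.28 and −0.09.

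Kinesins of transport and other roles centred near 0 across the 3 lines, but not within HCT116. Their median log2 ratio was −0.55 in HCT116 (all genes −0.04), 0.02 in HT29 and −0.17 in SW480. Of 32 named, 21 were listed in all lines, of which 0 passed in limma, 10 lay above and 11 below 0, with a median of −0.12. In every line 2 were higher (22.3% of all genes) and 5 lower (21.1%). KIF1C, a carrier of vesicles and mRNA, was at 1.06 ± 0.35, KIF16B, an endosome motor, at −0.95 ± 0.44, KIF3A, a subunit of the ciliary motor, at −1.06 ± 0.53 and KIF13B at −0.87 ± 0.44. Without HCT116, KIF16B was at −0.58, KIF3A at −0.29 and KIF13B at −0.40, so that these values rest much on that line. After correction for GC content and length the median of the list was 0.02 across lines and −0.61 within HCT116. The minus-end motor dynein and its dynactin partners were likewise near 0, with a median of 0.17 over 11 genes, 6 positive and 5 negative, and 0 passing in limma. DCTN1, the largest dynactin subunit, had the smallest p among them at 0.79 ± 0.38, and was at 0.45 without HCT116.

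The mRNAs of partners of the kinesins at the central spindle lay on 1 side of 0. All 11 genes of that list lay above 0, against 51.1% of all genes, 9 were higher in every line, against 22.3%, and the median was 1.43. In limma 0 passed over all genes. DESeq2 called 5 higher (1.01% of all genes) and limma without HCT116 called 7 higher (1.72%). The list included RACGAP1 (1.45 ± 0.35), which binds KIF23 in centralspindlin. Its BIRC5 (1.71 ± 0.35), CDCA8 (1.83 ± 0.47) and AURKB (1.88 ± 0.48) belong to the passenger complex that KIF20A carries. Among 11 spindle assembly genes 9 were positive and 4 higher in every line, with a median of 0.53, a count in every line not far from the 22.3% of all genes. AURKA, the kinase of the spindle poles, was at 2.10 ± 0.38, TACC3, a spindle microtubule crosslinker, at 1.78 ± 0.44 and TPX2, the activator of AURKA, at 1.32 ± 0.35.

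Among 6 chromosome arm genes, 5 were positive and 3 higher in every line (median 0.90), with the condensin subunits NCAPH at 1.70 ± 0.44, NCAPD2 at 1.62 ± 0.43 and NCAPG at 1.02 ± 0.39. Leaving out HCT116 moved NCAPD2 to 1.08. As a background for these lists, 51.1% of all genes were positive and 22.3% were higher in every line. Of 7 genes acting at microtubule ends, 4 were positive and 1 was higher in every line (median 0.03): GTSE1, an inhibitor of KIF2C, at 2.21 ± 0.50. Of 10 listed transcription factors of the cell cycle, 8 were positive and 5 higher in every line (median 0.50), with MYBL2 at 2.13 ± 0.48, FOXM1 at 1.77 ± 0.51 and E2F1 at 1.56 ± 0.39. All 4 cell division markers were higher in every line: CCNB1 at 2.32 ± 0.41, PCNA at 1.55 ± 0.35, CDK1 at 0.79 ± 0.38 and MKI67 at 0.72 ± 0.36. No gene of these lists passed over all genes in limma. Among all genes, DESeq2 called 1.01% higher. It called 2 spindle assembly, 2 chromosome arm, 1 microtubule end, 2 transcription factor and 2 marker genes higher, and none of these lists had a gene called lower.

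**Figure D5:**
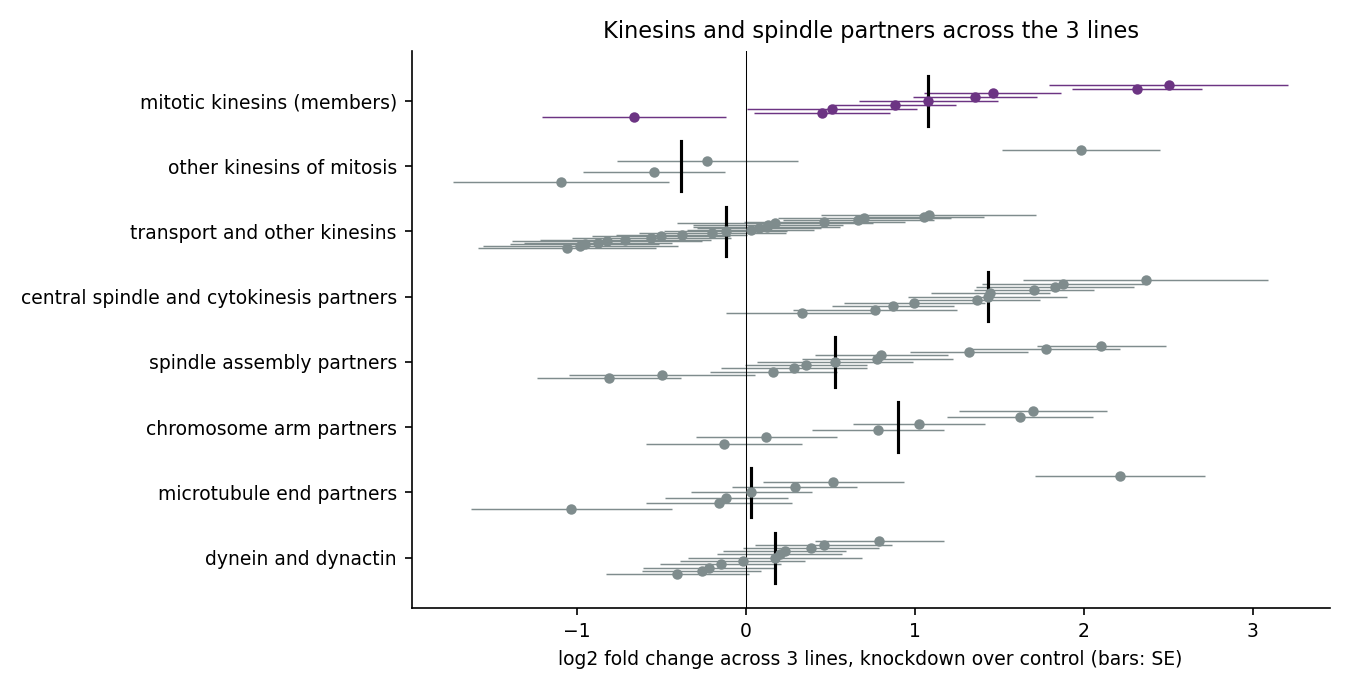
The log2 fold change across the 3 lines for each gene of the kinesin and spindle lists (points, with bars for SE) and the list median (black line). The mitotic kinesins centre on 1.08 and the central spindle partners on 1.43, whereas transport kinesins centre on −0.12 and dynein and dynactin genes on 0.17.

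The genes whose 3 log2 ratios lay nearest to the median of the kinesins in each line (0.56 in HCT116, 0.77 in HT29 and 1.21 in SW480) were IQCE, ANLN, STIL, DDX46, SPC25, MELK, PDSS1 and DEGS1, at Euclidean distances of 0.13 to 0.22 over 3 lines. KIF11 holds that median in all 3 lines. ANLN, a scaffold of the contractile ring, had log2 ratios of 0.44, 0.81 and 1.26, and SPC25, a kinetochore subunit, 0.46, 0.93 and 1.25. With 3 values a gene, such nearness is a description of these libraries.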

How the data were processed

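RNA sequencing of 6 libraries was used, 3 with non-targeting and 3 with BZW2 shRNA. Per the submitters' processing notes the tools were bcl2fastq 2.17, STAR 2.5.2b and DESeq on GRCh38. Strandedness, gene counter and annotation: not given in the sources used here. The deposited values are a signal per gene, made by the authors as read counts divided by a size factor set within each line. Dividing each column by its step returned whole numbers, to within 0.1 read, in 100% of cases. The smallest value of the SW480 control stood for 2 reads. Of 13040 identifiers, 19 repeated ones were left out. Symbols came from a gene name table (13003 matched), and coordinates, longest transcript and GC content from GENCODE 29 (13018 matched).

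Levels and ratios used TMM-scaled reads (edgeR 4.0.16), with a prior count of 2 for log2 ratios and exact Clopper-Pearson (ratios) or Poisson (levels) 95% intervals, which cover counting error only. With 1 library per treatment no test was possible within a line. A gene counted as 2-fold different needed 5 CPM in the higher library. Across lines limma 3.58.1 in R 4.3.3 was fitted to log2 of the deposited value plus 1, with line and treatment as terms, an intensity trend and Benjamini-Hochberg adjustment over all genes, for genes of at least 1 in 3 libraries. Fold changes so computed understate those of low genes. The 2 residual degrees of freedom stood against 7.26 prior ones. Lines were the replicates. The limma SE and p-values combine each gene's own spread among these lines with spread pooled over all genes. The pooled part weighs more here, so they do not measure a gene's own spread alone. The pairing came from the shared line, whose libraries correlated after removal of group means at 0.28 (HCT116), 0.75 (HT29) and 0.45 (SW480). The highest correlation of the same knockdown libraries with the control of another line was 0.23, −0.66 and 0.38. The margin was thus small in HCT116 and SW480. Alternatives were edgeR, DESeq2 1.42.0, other scalings, pseudocounts and filters, omitted lines, and a spline correction for GC content and length. The limma fit was tested on simulated data. The genes named were the kinesins, the at most 4 genes of smallest p per list and the 8 nearest patterns. The members and lists were chosen with earlier results of these data known.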

Additional observations from a re-analysis of the deposited data

Results flagged for a closer look

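KIF20B and KIF14 went opposite ways in different lines, with counting intervals beyond no difference on both sides. The KIF20B ratio of knockdown over control was 0.353 for HCT116 and 0.327 for HT29, but 2.01 for SW480. That of KIF14 was 0.678 for HCT116, 1.08 for HT29 and 3.66 for SW480. With 1 pair of libraries a line, the difference between lines was not tested. After correction for GC content and length both genes lay above 0 on the log2 scale in HCT116 (0.59 and 1.11), and KIF20B remained below 0 in HT29 (−0.82).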

How the results depend on the processing

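Among the alternative values of single kinesins across lines, 89 kept their direction and their side of the threshold, 7 passed it and 2 turned sign: KIF14 without SW480 (−0.19, with a range up to 1.02 when another line was left out) and KIF20B with the line as a block and correction for GC content and length (0.31). Leaving out each line in turn gave 57 to 338 called genes and 0 to 3 called kinesins, where all lines gave 0 and 0. DESeq2 called 244 genes and 2 kinesins. Without the line as a block, limma called 0 genes and 0 kinesins, and the limma adjusted p of KIF20A was 1.00. The filter of 20 in every library removed KIF18B from the test. Within HCT116 the kinesin median of 0.56 became 0.24 with scaling by library size alone, which moved the all-gene median to −0.39, and 1.64 with correction for GC content and length, when 7 in place of 4 kinesins were at least 2-fold higher. Within HT29 that correction took the median from 0.77 to 0.94. The numbers of kinesins higher in every line ran from 6 to 8 over scalings, the correction and omitted lines, a comparison chosen after seeing the data. Depth limits KIF18B most, with 20 to 25 reads in each control library.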
